A study of Mus musculus with 74 samples.

Results

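Interferon response genes were followed in liver and in white and brown fat of male mice of the hybrid strain B6C3F1 that received fenretinide, troglitazone or Elmiron. The set was a list of 39 gene symbols, and each gene was read from its single-symbol probe set with the highest mean over all arrays. In all, 37 of the 39 genes were measured, out of 18193 genes with a single symbol on the array. Isg15 and Ifi44 were not analysed here. The rule named known interferon-induced genes and used no comparison between groups, only the mean signal to choose among probe sets. The list itself was chosen with earlier results of these data known.

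Interferons are secreted signals that warn cells of infection. Type I interferons act through a shared receptor and Janus kinases to form a complex with Stat2 and Irf9 that binds the interferon-stimulated response element (ISRE) near its targets. Interferon gamma acts through the gamma-activated site (GAS) and through Irf1. The targets include sensors of viral nucleic acid, enzymes that block viral translation or degrade viral RNA, GTPases that attack the membranes around intracellular microbes, and the immunoproteasome and peptide transporter that feed antigen presentation. Many of these genes keep a basal level in healthy liver and fat.

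The series profiled tissues in which hemangiosarcomas, tumours of endothelial cells, arise in mice given these agents, after 15 and 29 days at doses set about 2-fold above the high doses of the carcinogenicity studies. Fenretinide, a synthetic retinoid, was given in the diet at 500 mg/kg, and its target, white adipose tissue, was profiled in 3 treated and 3 vehicle animals at 15 days and in 4 and 4 at 29 days. Troglitazone, a PPARγ agonist, was given orally at 1200 mg/kg, and Elmiron (pentosan polysulfate, a sulfated polysaccharide) orally at 1000 mg/kg. Troglitazone was followed in liver and brown adipose tissue and Elmiron in liver alone, each with 5 animals per arm and time, which gives 16 groups and 74 arrays in all. The mouse numbers in the labels mark the members of a group as separate animals, so the tests measure the spread between mice; 15 mice of the troglitazone study gave both tissues. The labels give no age. Each agent had its own study and vehicle group, so agent, dose and study cannot be told apart.

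Values are log2 of the deposited intensity, a change is treated minus vehicle on that scale, and a gene was called where limma gave a Benjamini-Hochberg adjusted p below 0.05 over all 18193 genes. The tissue labels matched their defining markers in nearly all arrays. The hepatocyte gene Alb lay between 15.08 and 15.21 in every liver, the adipocyte gene Adipoq between 14.42 and 14.99 in every fat array, and the brown fat gene Ucp1 between 14.91 and 15.11 in all brown arrays but those of vehicle mouse 82 (5.91) and troglitazone mouse 95 (8.10) of day 29. Adipoq read 14.84 in brown mouse 82 and 14.93 in brown mouse 95, within the range of the white arrays (14.77 to 14.99). The other brown arrays ranged from 14.42 to 14.68. The array of brown mouse 82 also read 14.61 for Alb, with hepatocyte markers 4.30 and epithelial markers 2.17 above the vehicle mean. Which tissue these arrays hold was not tested. White arrays of day 29 carried genes of other tissues. Hepatocyte markers stood 2.12 above the vehicle mean in vehicle mouse 86 and 3.05 in fenretinide mouse 95. Ucp1 was 13.44 and 11.69 in vehicle mice 85 and 86, 12.82 and 14.66 in fenretinide mice 91 and 93, and 5.13 to 7.56 in the other 4. Among the livers, Elmiron mouse 92 of day 29 had a Ucp1 value of 9.64, while the rest ranged from 5.57 to 6.43. Comparisons of treated with vehicle mice and of vehicle tissues that hold these libraries are given with and without them. Contrasts of effects, between days, tissues or agents, are described with all arrays.

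The promoters of several members hold the core letters of the ISRE. RefSeq windows of the GRCm38.p6 build, running from 250 bases before to 50 bases after the start of transcription, were found for 28 of the 37 genes. The ISRE core GAAANNGAAA, searched on both strands, was in 13 of the 28 (46.4%) and in 3.99% of the windows of all 27025 genes. The GAS core TTCNNNGAA was in 10 of the 28 (35.7%) and in 9.55% of all windows, and 4 members held both. The other 9 of the 28 held neither core in this window, and overlapping matches were counted for both motifs. The 6 sequences below, which belong to genes whose values are described further on, show where the core lies in 100 bases upstream of the start. Each reads 5′ to 3′ along the gene's own strand, with the ISRE core or its reverse complement in capitals. They cover bases 124 to 25 before the start for Ifit1 (chr19:34640765-34640864, plus strand), 140 to 41 for Rsad2 (chr12:26456493-26456592, minus strand), 100 to 1 for Oas1a (chr5:120907526-120907625, minus strand), 150 to 51 for Bst2 (chr8:71537523-71537622, minus strand), 100 to 1 for Gbp2 (chr3:142620563-142620662, plus strand) and 100 to 1 for Igtp (chr11:58199456-58199555, plus strand).
Ifit1: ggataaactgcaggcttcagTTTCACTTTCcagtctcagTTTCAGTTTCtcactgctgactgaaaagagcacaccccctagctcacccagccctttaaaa
Rsad2: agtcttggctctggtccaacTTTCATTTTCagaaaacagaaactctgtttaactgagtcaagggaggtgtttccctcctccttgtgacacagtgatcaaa
Oas1a: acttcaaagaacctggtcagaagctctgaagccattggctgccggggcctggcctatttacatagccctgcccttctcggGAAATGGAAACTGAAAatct
Bst2: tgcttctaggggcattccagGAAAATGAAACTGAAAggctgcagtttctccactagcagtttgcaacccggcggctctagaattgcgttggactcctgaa
Gbp2: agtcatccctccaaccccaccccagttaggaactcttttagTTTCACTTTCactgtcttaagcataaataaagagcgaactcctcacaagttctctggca
Igtp: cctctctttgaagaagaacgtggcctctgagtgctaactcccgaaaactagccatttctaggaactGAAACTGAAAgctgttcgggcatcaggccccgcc
Ifit1 has 2 separate cores (first bases 104 and 85 before the start), while in Oas1a and Bst2 the 2 cores overlap and share a GAAA. A match is a description of the letters and not a binding site.

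In vehicle mice the members were expressed in all 3 tissues. The median of their group means was 9.18 and 8.82 in white adipose tissue (days 15 and 29), 8.19 and 8.22 in brown adipose tissue, 8.54 and 8.71 in the troglitazone study's livers and 8.69 and 8.52 in those of the Elmiron study. The median over all genes lay between 7.74 and 7.92. Of the 37 members, 25 to 29 lay above the median gene, depending on the group. The brightest probe sets on day 15 were those of Ifi35 (11.52), Gbp2 (11.49) and the immunoproteasome subunit Psmb8 (10.95) in white adipose tissue, Ifi35 (10.72), Gbp2 (10.07) and the ubiquitin ligase Trim25 (10.03) in brown adipose tissue, and Bst2 (11.90), Ifi35 (11.59) and Trim25 (11.10) in liver of the troglitazone study. The dimmest were Mx1 (5.44), Oas3 (6.24) and Dhx58 (7.02) in white adipose tissue, Mx1 (5.13), Ifit2 (6.17) and Oas3 (6.46) in brown adipose tissue, and Mx1 (5.24), Ifit2 (5.67) and Oasl2 (6.30) in liver. Probe sets differ in how strongly they bind, so this order is one of signals and not of transcript amounts. Mx1, whose product blocks influenza virus, is defective in many inbred mouse strains.

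The clearest differences lay between tissues of untreated animals. In vehicle mice of the troglitazone study, brown adipose tissue and liver differed in 29 of 37 members on each day by limma with Benjamini-Hochberg adjustment, and 24 of the 29 were lower in brown adipose tissue. Most genes of the array also differed between these tissues: on day 15, 28.1% of all genes were higher and 35.1% lower in brown adipose tissue, against 5 and 24 of the 37 members. On day 29 the shares were 28.3% and 37.5%, again against 5 and 24. The groups did not overlap in 24 members on day 15 (57.5% of all genes) and in 16 on day 29 (38.3% of all genes). The median difference was -0.55 and -0.67 over the members and -0.11 and -0.12 over all genes. These are whole tissues, so fewer cells of a type and less RNA per cell cannot be told apart.

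Bst2, which encodes tetherin, a membrane protein that holds budding virus on the cell, had the largest difference. On day 15 its log2 values were 9.23, 8.58, 8.52, 8.84 and 9.06 in brown adipose tissue and 11.79, 11.97, 11.83, 11.87 and 12.03 in liver. Every liver lay far above every brown sample, a difference of -3.05 ± 0.17 (SE, n = 5 each) or 8.30-fold (limma adjusted p = 4.94e-18), and on day 29 it was -2.94 (adjusted p = 1.59e-17). Gbp2, a guanylate-binding protein of the interferon gamma response, ran the other way, with 10.32, 9.82, 9.93, 10.18 and 10.12 in brown adipose tissue and 7.38, 7.67, 7.14, 7.32 and 7.76 in liver on day 15. The groups did not overlap, and the difference was 2.62 ± 0.20 (SE, n = 5 each), 6.14-fold (adjusted p = 8.10e-14), with 2.74 on day 29. The probe set used for Gbp2 is of a kind that may also bind related transcripts, and the gene's other probe set differed by 2.36 and 2.82.

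By role, the members of vehicle mice split as follows. All 3 sensors of viral nucleic acid were lower in brown adipose tissue on both days, with the RNA helicase gene Ifih1 at -1.98 on day 15 and -1.77 on day 29. Of the 5 transcription factors, 4 were lower on day 15 and 5 on day 29; Irf7, the main inducer of type I interferon genes, differed by -1.25 and -1.26. Irf1 differed by -0.13 on day 15, which was not called, and by -0.41 on day 29, which was. Usp18, which strips ISG15 from proteins and damps the type I receptor, differed by -1.28 and -1.31, and Stat2 by -1.04 and -1.15. Of the 3 IFIT genes, whose products bind foreign RNA, Ifit1 (-1.09 and -1.11) and Ifit3 were lower and Ifit2 (0.50 and 0.70) was higher in brown adipose tissue on both days. Of the 5 genes of the OAS family, 3 were lower on each day and Oas2 was higher on day 15 (0.35). The 4 GTPase genes were split, with Gbp2 and Gbp3 (0.78 and 1.03) higher and Igtp (-1.74 and -1.58) and Irgm1 (-1.58 and -1.52) lower in brown adipose tissue. Of the genes of antigen processing, Psmb8 (-0.98 and -0.77) and Psmb9 were lower on both days and the peptide transporter gene Tap1 was called on day 15 only (-0.53 and -0.32, adjusted p = 0.0053 and 0.086).

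Without brown vehicle mouse 82, whose array held little of the brown adipocyte markers and much hepatocyte signal, 29 members were called on day 29, 3 higher and 26 lower. Samd9l (0.43) and Rsad2 (0.27) were then no longer called; in the full data their limma adjusted p had been 0.0089 and 0.042. On day 15, macrophage markers (12 genes) had mean levels of 9.02 to 9.19 in brown adipose tissue and 8.71 to 9.24 in liver. Leukocyte markers (7 genes) stood at 8.55 to 9.03 and 8.19 to 8.65. Plasmacytoid dendritic cell markers (7 genes) stood at 7.52 to 7.68 and 7.72 to 7.83. Bst2, itself a member, is in this last list, so the list is not independent of the members. Called genes within each list went both ways. Examples are Clec4f (-3.65) and Lyz2 (1.62), Lcp1 (-1.96) and Coro1a (1.15), and Bst2 (-3.05) and Tcf4 (2.38). Endothelial cell markers (10 genes) stood at 9.62 to 10.05 in brown adipose tissue and 7.82 to 8.10 in liver. Skeletal muscle markers (8 genes) stood at 10.03 to 13.76 in brown adipose tissue and 6.08 to 6.34 in liver. The part of these cells in the differences was not tested.

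**Figure D1:**
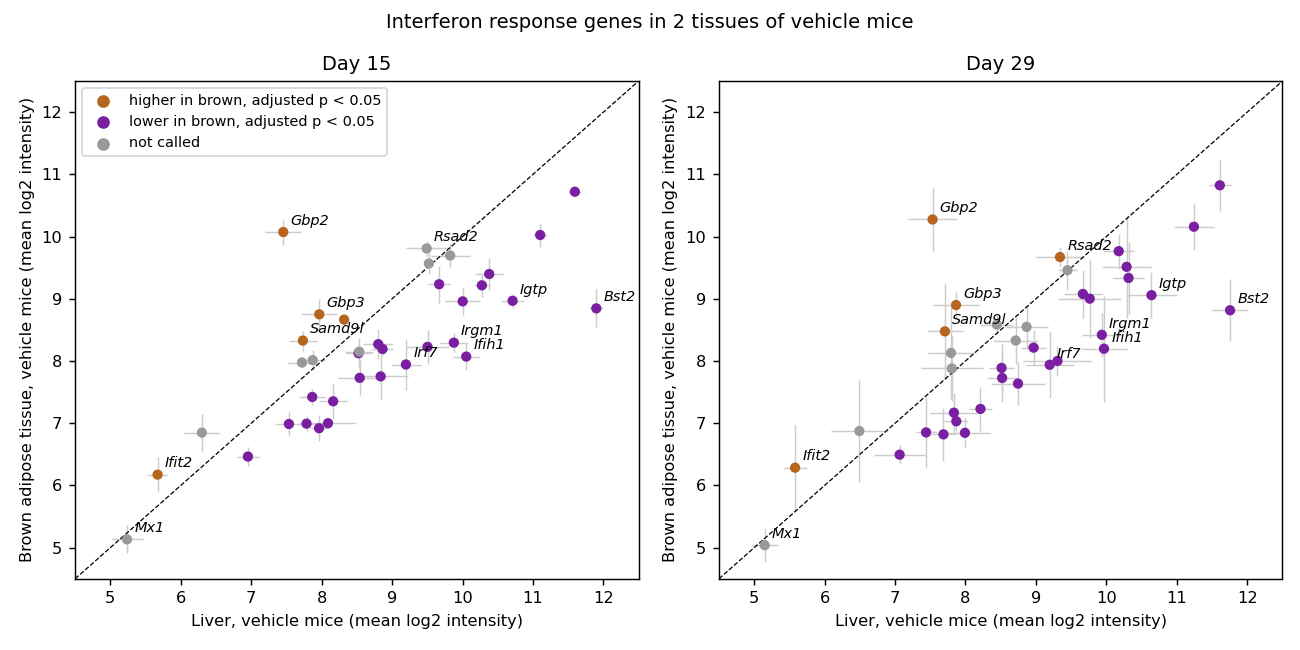
Mean log2 intensity of each of the 37 genes in liver (horizontal) and brown adipose tissue (vertical) of vehicle mice, with bars of 1 SD (n = 5) and a dashed line of equal signal, for days 15 and 29. Bst2 lies farthest below the line and Gbp2 farthest above it on both days, and most of the other called genes lie below it.

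The other genes of the pathway were also split between these tissues on day 15. Of 9 measured interferon genes, 0 were called higher and 3 lower in brown adipose tissue, with Ifna1 at -0.88. Of 10 receptor and JAK-STAT genes, 5 were higher and 2 lower, and the largest differences were those of Il10rb (2.24), a shared receptor chain of lambda interferon and interleukin 10, Ifngr1 (1.55), the ligand-binding chain of the gamma receptor, and the kinase gene Jak1 (0.49). Among 17 further sensors and adaptors 3 were higher and 8 lower, with Ikbke, a kinase that activates interferon regulatory factors, at -2.36. Of 43 other interferon-induced genes, 10 were higher and 18 lower; Ifi27l2a stood at 4.62 and the GTPase gene Iigp1 at -4.03. Of 10 negative regulators 4 were higher and 1 lower, and of 15 antigen presentation genes 6 were higher and 4 lower, with the class II gene H2-Aa at 2.06. All of these stand beside 28.1% higher and 35.1% lower over all genes.

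Few members passed the test after treatment. Over the 8 comparisons of an agent with its vehicle, limma called 1 member in 1 comparison, Isg20 in white adipose tissue on day 15, and 0 of 37 in the other 7. The changes of all members in all comparisons are shown in the heat map.

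**Figure D2:**
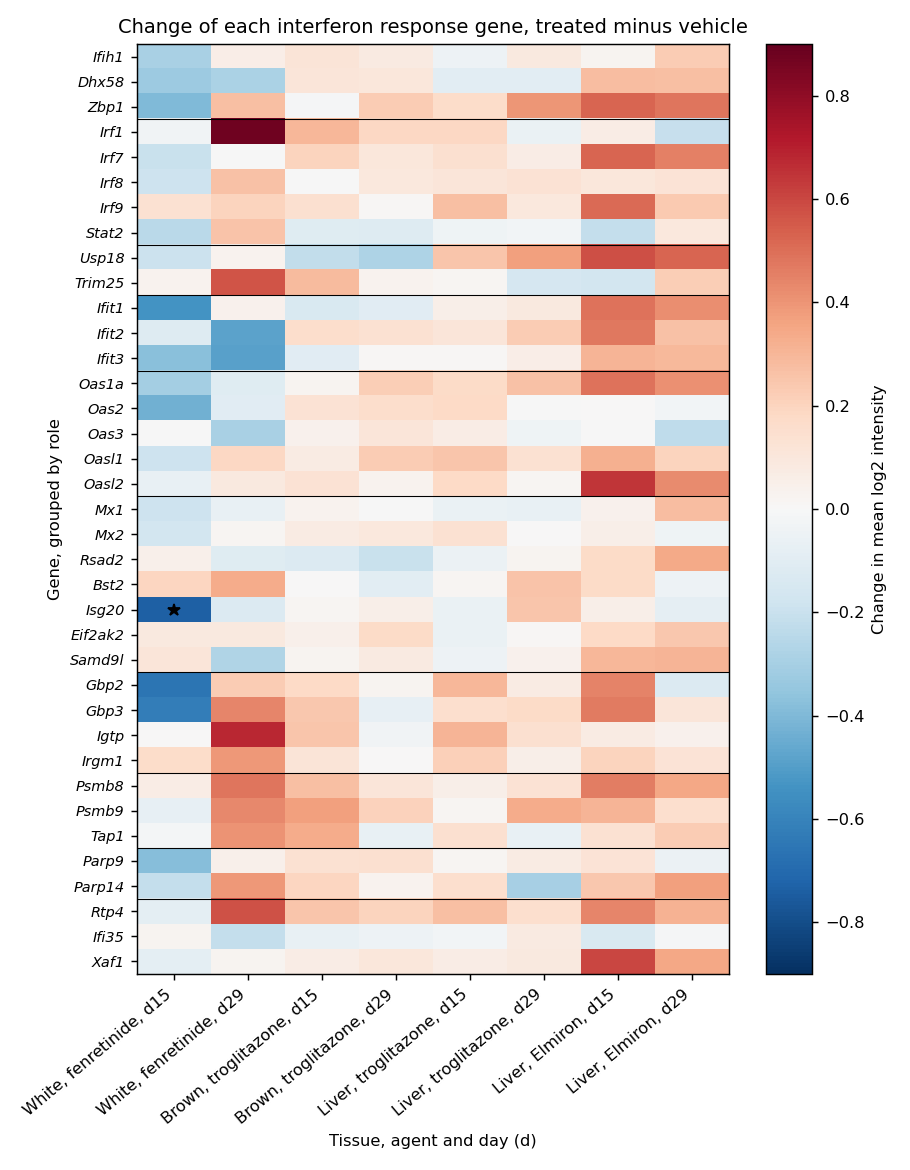
Change of each of the 37 genes (rows, grouped by role) in the 8 comparisons of treated with vehicle mice (columns), as the difference of mean log2 intensity, red for higher and blue for lower in treated mice. The star marks Isg20 in white adipose tissue on day 15, the only called change, and the column of Elmiron on day 15 is red in 33 of 37 rows.

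In white adipose tissue on day 15 of fenretinide, the 3' to 5' exonuclease gene Isg20, whose product degrades viral RNA, fell. Its log2 values were 9.51, 9.61 and 9.76 in vehicle mice (9.62 ± 0.12, SD, n = 3) and 8.97, 8.75 and 8.95 in fenretinide mice (8.89 ± 0.12, SD, n = 3). All treated values lay below all vehicle values, a change of -0.73 ± 0.19 (SE), 1.66-fold (limma adjusted p = 0.0481). The call was lost when any 1 of the 6 mice was left out, with adjusted p between 0.0632 and 0.159. Thus 1 of 37 members was called, beside 3.95% of all genes.

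At an unadjusted p below 0.05, 2 members were lower (Isg20 and Oas2) and 0 higher, beside 8.83% of all genes lower and 10.9% higher. The values of 6 members did not overlap between the groups (Isg20, Gbp2, Oas2, Parp9, Ifih1 and Mx2, all lower in treated mice), beside 27.9% of all genes. Only 10 of 37 members had a change above 0, against 42.3% of all genes, and the median change was -0.17 against -0.04. Gbp2 differed by -0.66 (adjusted p = 0.27), Ifit1 by -0.54, Usp18 by -0.20, Irf7 by -0.20, Irf1 by -0.03, Psmb8 by 0.07 and Bst2 by 0.19, none of them called. With each array centred on its median, the median change was -0.20 over all genes and -0.32 over the members, 2 members lay above 0, and Oas2 (-0.43 as deposited) was called beside Isg20. These 6 arrays also differed in markers of other cell types. The 14 markers of general epithelium had mean levels of 6.33 to 7.10 in vehicle and 9.24 to 10.41 in fenretinide mice, and 9 of the 14 were called higher, led by Prom1, Dsp and Cldn7. The 10 endothelial markers stood at 10.02 to 10.35 and 10.59 to 10.92, with Emcn called higher. The 8 T cell markers stood at 6.44 to 6.87 in vehicle and 6.28 to 6.39 in fenretinide mice. The 12 macrophage markers stood at 9.92 to 10.21 and 9.89 to 9.91, and the leukocyte gene Ptprc at 10.36 to 10.53 and 9.73 to 10.13. None of these overlapped and none was called. The 7 leukocyte markers as a list, Ptprc among them, did overlap, at 10.13 to 10.36 in vehicle and 9.83 to 10.83 in fenretinide mice. The part of these markers in the members' changes was not tested.

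Among the other genes of the pathway on day 15, the chemokine gene Cxcl9, a classical target of interferon gamma, fell from 11.14, 10.69 and 10.60 in vehicle mice to 8.82, 8.47 and 9.01 in fenretinide mice. The groups stood well apart, with a change of -2.05 ± 0.35 (SE, adjusted p = 0.0057). Tdrd7 fell by 0.49 (adjusted p = 0.0484), and Ifnlr1, the specific chain of the lambda interferon receptor, rose by 0.77 (adjusted p = 0.0101). Thus 2 of 43 other interferon-induced genes were called by limma, both lower, and 1 of 10 receptor and JAK-STAT genes. In the other lists 0 of 9 interferon genes, 0 of 17 sensors and adaptors, 0 of 10 negative regulators and 0 of 15 antigen presentation genes were called. These counts stand beside the share of all genes called in this comparison, given above with Isg20. No excess over that share is read from them.

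On day 29 of fenretinide 0 of 37 members was called by limma, beside 1.34% of all genes, and at an unadjusted p below 0.05 there were 5 higher (5.72% of all genes) and 2 lower (9.12%). The smallest adjusted p was 0.119, that of Bst2. Its values were 9.54, 9.59, 9.51 and 9.61 in vehicle and 10.11, 9.81, 9.91 and 9.75 in fenretinide mice. The treated values lay above all vehicle values, by 0.33 on average, and Bst2 was 1 of 3 members whose groups did not overlap (8.75% of all genes), with Psmb9 (0.43) and Ifit3 (-0.49). The largest changes were those of Irf1 (0.87, adjusted p = 0.21), Igtp (0.68), Trim25 (0.57) and Rtp4 (0.57), while Psmb8 differed by 0.48, Usp18 by 0.03 and Irf7 by 0.00. Of the other pathway genes, Tdrd7 fell again, by 0.81 (adjusted p = 0.0066), from 11.38, 11.66, 11.41 and 11.18 to 10.75, 10.52, 10.63 and 10.48, and it was the only called gene of the 6 pathway lists.

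Fenretinide mouse 91 carried much of the day 29 differences. Irf1, the transcription factor of the gamma response, read 10.13, 10.08, 9.79 and 9.81 in vehicle mice and 12.11, 10.67, 10.11 and 10.42 in fenretinide mice, with mouse 91 the highest and 1 of the others inside the vehicle range. Of the 37 members, 25 lay above 0 with a median change of 0.08 (46.2% of all genes lay above 0, with a median of -0.02). Without mouse 91 these were 17 members and -0.02, and without vehicle mouse 86 and fenretinide mice 93 and 95 they were 28 members and 0.21. Without vehicle mouse 85 they were 24 members and 0.07, and limma called 0 members each time. The contrast between days called 0 of 37 members by limma, beside 1.33% of all genes, and 4 at an unadjusted p below 0.05, beside 15.7%.

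In liver, Elmiron on day 15 gave the most one-sided pattern of the 8 comparisons, without a call. Of the 37 members, 33 had a change above 0, with a median of 0.24, against 48.2% and -0.01 over all genes. By limma 0 of 37 were called, beside 0% of all genes (0 of 18193), and 8 members were higher and 0 lower at an unadjusted p below 0.05, beside 3.3% and 2.18% of all genes. All 7 further antiviral effectors, all 4 GTPases, all 3 sensors, all 3 IFIT genes and all 3 genes of antigen processing lay above 0. The values of Oasl2 and Ifit2 did not overlap between the groups, 2 of 37 members beside 1.06% of all genes.

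Irf7 read 9.42, 8.94, 9.11, 9.23 and 9.05 in vehicle livers and 9.27, 9.45, 10.63, 9.40 and 9.60 in Elmiron livers on day 15. Mouse 53 stood far above the other treated mice, and the 2 lowest treated mice lay within the vehicle range. The change was 0.52 ± 0.24 (SE, n = 5 each; limma adjusted p = 0.89). Usp18 read 9.81, 9.30, 9.44, 9.71 and 9.33 against 9.68, 9.74, 11.08, 9.72 and 10.27, again with mouse 53 far above the others and overlapping groups otherwise (0.58, adjusted p = 0.95). Psmb8 had the smallest p, with 10.67, 10.19, 10.36, 10.43 and 10.19 against 10.65, 10.56, 11.46, 10.57 and 10.90. Its groups overlapped only through vehicle mouse 41, and its change of 0.46 ± 0.14 (SE) had an adjusted p of 0.72. Oasl2, at 0.64, had the largest change, followed by the apoptosis-linked gene Xaf1 (0.60) and Usp18. Ifit1 differed by 0.49, Bst2 by 0.17, Irf1 by 0.07 and Stat2 by -0.22.

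Without Elmiron mouse 53, 28 members lay above 0 with a median of 0.14, and 0 were called by limma. Of 43 other interferon-induced genes 37 lay above 0 with a median of 0.19, and of 15 antigen presentation genes 14, with 0.17; limma called 0 of either. Leukocyte markers (7 of 7 above 0) moved the same way, with mean levels of 8.22 to 8.62 in vehicle and 8.68 to 9.17 in Elmiron mice. Macrophage markers (11 of 12 above 0) stood at 8.87 to 9.37 and 9.27 to 9.82. The group medians of T cell and neutrophil markers were 6.77 and 7.04 in vehicle and 6.71 and 6.99 in Elmiron mice. Those of NK cell, B and plasma cell and plasmacytoid dendritic cell markers went from 6.24, 7.37 and 7.85 to 6.32, 7.41 and 7.87. Their part in the result was not tested. The 95% intervals of single members reached from -0.44 to 1.27 on the log2 scale.

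On day 29 of Elmiron, 28 members lay above 0 with a median of 0.23 (54% of all genes, median 0.01). Limma called 0 of 37, beside 0.0055% of all genes, and at an unadjusted p below 0.05 there were 2 higher (Psmb8 at 0.35 and Parp14 at 0.37) and 0 lower, beside 4.41% and 3.89% of all genes. Irf7 read 8.84, 9.12, 9.21, 9.44 and 9.03 in vehicle and 8.99, 9.18, 9.70, 10.44 and 9.61 in Elmiron livers. Ifit1 read 8.12, 8.74, 9.08, 8.98 and 8.66 against 8.11, 8.66, 9.17, 10.60 and 9.10. In both genes the groups overlapped and mouse 94 was the highest of all, with mean changes of 0.46 and 0.41 that were not called. The largest changes were those of Usp18 (0.53), Zbp1 (0.48), a sensor of left-handed nucleic acid, and Irf7. Without mouse 94, 26 members lay above 0 with a median of 0.10, and without mouse 92, whose liver carried Ucp1, 29 with a median of 0.27, with 0 called by limma in either case. Irf1 differed by -0.21, Bst2 by -0.05 and Stat2 by 0.10 on this day. Macrophage markers lay above 0 in 7 of 12 and leukocyte markers in 4 of 7 genes.

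Between the days, the Elmiron effect differed in 0 of 37 members by limma, beside 0% of all genes, with 1 at an unadjusted p below 0.05 (Trim25, 0.39), beside 5.39% of all genes.

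In liver, troglitazone gave small differences, with 95% intervals of single members between -0.43 and 0.68 on day 15 and between -0.61 and 0.80 on day 29. On day 15 limma called 0 of 37, beside 0.022% of all genes. At an unadjusted p below 0.05 there were 4 higher (Irf9 0.27, Rtp4 0.27, Oasl1 0.25 and Igtp 0.30) and 0 lower, beside 2.34% and 1.96% of all genes. Irf9, the DNA-binding partner of Stat2, read 8.73, 8.95, 8.80, 8.76 and 9.07 in vehicle and 8.93, 9.10, 9.19, 9.20 and 9.27 in troglitazone livers, groups that overlapped in part (adjusted p = 0.96). Igtp and Gbp2 (0.30 each) and Irf9 had the largest changes. Over the set, 28 members lay above 0 with a median of 0.11, against 45.5% and -0.01 over all genes. On day 29 limma called 0 of 37 again, beside 0.115%, with 4 higher (Bst2 0.26, Zbp1 0.40, Oas1a 0.26 and Ifit2 0.23) and 0 lower at an unadjusted p below 0.05, beside 5.97% and 4.24%. Zbp1, Usp18 (0.37) and Psmb9 (0.34) had the largest changes, none with an adjusted p below 0.44. The 28 members above 0 (median 0.08) became 20 with a median of 0.01 when vehicle mouse 88, the lowest of its group, was left out. The 12 macrophage markers all lay above 0 on day 29, with mean levels of 8.52 to 9.11 in vehicle and 8.91 to 9.88 in troglitazone livers; their part was not tested. The day contrast called 0 of 37 by limma, beside 0% of all genes, with 1 at an unadjusted p below 0.05 (Parp14, -0.45), beside 7.49%.

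In brown adipose tissue of the same study, troglitazone gave 0 called members of 37 by limma on day 15, beside 0.0605% of all genes. At an unadjusted p below 0.05, 1 was higher and 0 lower, beside 2.22% and 1.53%. The gene was Irf1, with 9.87, 9.47, 9.53, 9.80 and 9.80 in vehicle and 10.00, 9.95, 10.05, 10.13 and 9.83 in troglitazone mice. Only the lowest treated value lay inside the vehicle range, and the change of 0.30 ± 0.12 (SE) had an adjusted p of 1.0. Weighting the arrays by their quality in limma brought Irf1 to an adjusted p of 0.0336, the 1 call of that setting among the members. The largest changes were those of Psmb9 (0.37), Tap1 (0.34) and Irf1, and 29 members lay above 0 (median 0.11, against 50.9% of all genes).

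On day 29 limma called 0 of 37 members in brown adipose tissue, beside 0.055% of all genes, and 0 were higher and 0 lower at an unadjusted p below 0.05, beside 2.81% and 3.2%. The largest changes were -0.28 for Usp18 and 0.23 for Oasl1 and Zbp1. The 2 arrays without brown fat markers set the spread here. Psmb8 read 10.86, 8.93, 9.42, 8.80 and 9.56 in vehicle and 9.39, 9.42, 9.49, 9.23 and 10.60 in troglitazone mice, and Ifih1 read 9.64, 7.91, 7.87, 7.40 and 8.17 against 7.92, 7.99, 8.04, 7.94 and 9.49. In each group 1 mouse stood far above the rest, vehicle mouse 82 and troglitazone mouse 95. The brown adipocyte markers of these 2 arrays stood at -4.29 and -3.37 against the vehicle mean, and their leukocyte markers at 1.77 and 0.94. With both arrays 27 members lay above 0 (median 0.08, against 53.6% of all genes), without both 25 (median 0.08), without mouse 95 alone 12 (median -0.10) and without mouse 82 alone 30 (median 0.19). The day contrast called 0 of 37 by limma, beside 0% of all genes, with 0 at an unadjusted p below 0.05, beside 1.14%.

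The difference of the troglitazone effect between brown adipose tissue and liver was called by limma in 0 of 37 members on day 15 (0.022% of all genes) and in 0 on day 29 (0.0165%). At an unadjusted p below 0.05 the counts were 0 on day 15 (3.19% of all genes) and 1 on day 29 (5.4%), the latter being Usp18, which differed by -0.28 in brown adipose tissue and 0.37 in liver (difference -0.65 ± 0.27, SE, adjusted p = 0.82). Between troglitazone and Elmiron in liver, each against its own vehicle and at different doses, limma called 0 of 37 on day 15 (0.0055% of all genes) and 0 on day 29 (0.0934%). At an unadjusted p below 0.05 there was 1 on day 15 (Xaf1, -0.53, beside 5.97% of all genes) and 2 on day 29 (Parp14, -0.67, and Trim25, -0.38, beside 12.7%). On day 15 the 95% intervals of these differences reached from -1.21 to 0.72 over the members, and the median was -0.15.

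Single animals stood apart within their groups. A member score, the mean over the 37 genes of the log2 deviation from the vehicle mice of the same tissue, study and day, ran from -0.34 to 0.52 in vehicle arrays and from -0.25 to 0.68 in treated ones. The highest scores outside brown adipose tissue were those of Elmiron mouse 94 on day 29 (0.68), Elmiron mouse 53 on day 15 (0.65) and fenretinide mouse 91 on day 29 (0.58). In brown adipose tissue, vehicle mouse 82 (0.52) and troglitazone mouse 95 (0.54) of day 29 were the highest. The other Elmiron scores were 0.04, 0.12, 0.10 and 0.35 on day 15 and -0.25, -0.01, 0.23 and 0.29 on day 29, while the vehicle livers of that study ran from -0.10 to 0.06 and from -0.23 to 0.12.

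**Figure D3:**
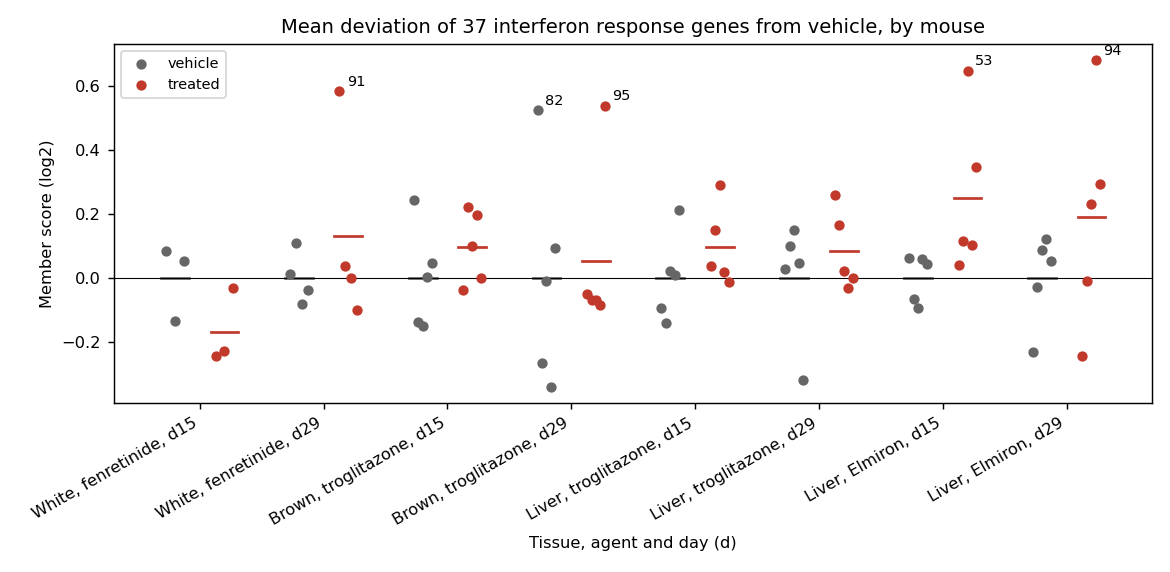
Member score (mean log2 deviation of the 37 genes from the vehicle mean of the same tissue, study and day) of each mouse, vehicle in grey and treated in red, with the group mean as a line. Mice with a score beyond 0.45 are numbered: 91 in white adipose tissue, 82 and 95 in brown adipose tissue, 53 and 94 in liver.

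The 3 treated mice did not share one profile, and because they were picked by their scores the values are a description with no test. The counts for these 3 mice cover the members alone and were not made over all genes. They do not show how many genes of the whole array lay as far out. In mouse 53, 28 members lay above all vehicle livers and 10 were more than 1 above the vehicle mean: Usp18 (1.56), Irf7 (1.48), Xaf1 (1.45), Zbp1 (1.39), Oas1a (1.27), Oasl2 (1.27), Ifit1 (1.24), Gbp3 (1.21), Psmb8 (1.09) and Ifit2 (1.07). In mouse 94, 27 members lay above all vehicle livers, and the 10 members past 1 were led by Usp18 (1.92), Ifit1 (1.89), Rsad2 (1.59), Oas1a (1.47), Ifit3 (1.39) and Irf7 (1.31). These 2 livers had 6 such members in common (Irf7, Usp18, Ifit1, Oas1a, Oasl2 and Gbp3), whereas Irf1 was at -0.09 and -0.47.

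In white adipose tissue of mouse 91, 24 members lay above all vehicle arrays and 10 were more than 1 above their mean, led by Irf1 (2.16), Igtp (1.98), Rtp4 (1.93), Gbp3 (1.70), Parp14 (1.52) and Irf8 (1.36). The IFIT and OAS genes Ifit2 (-0.56), Ifit3 (-0.50), Oas2 (-0.40) and Oas3 (-0.42) lay below it, and Irf7 (0.12) and Usp18 (0.13) near it. Mouse 91 shared 1 member past 1 with mouse 53 (Gbp3) and 2 with mouse 94 (Gbp3 and Rtp4). Leukocyte and macrophage markers were 0.59 and 0.63 above the vehicle mean in mouse 53, 0.15 and 0.14 in mouse 94, and 0.13 and -0.51 in mouse 91. Brown adipocyte and skeletal muscle markers were 1.14 and 1.06 above the vehicle mean in mouse 91, and 1.61 and 2.21 in vehicle mouse 85 of its group, whose member score lay within -0.08 to 0.11 like those of the other vehicle mice. The part of these markers in the profiles was not tested.

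**Figure D4:**
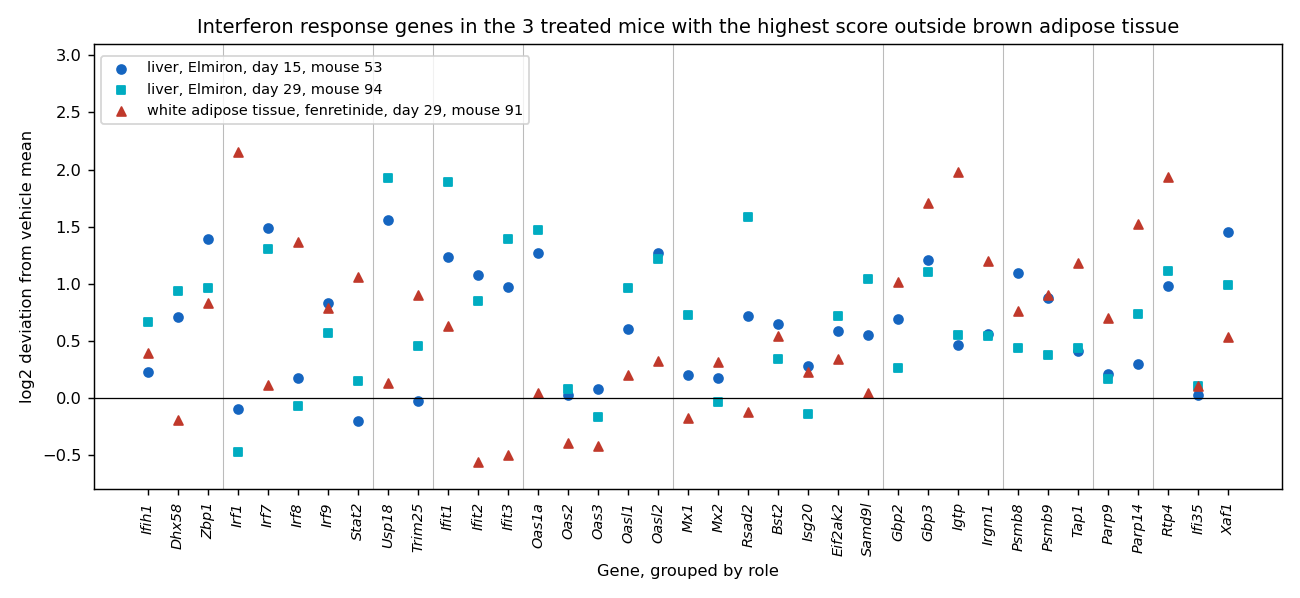
Deviation of each of the 37 genes (horizontal axis, grouped by role) from the vehicle mean of its group in log2 units, for the liver of Elmiron mice 53 (circles) and 94 (squares) and white adipose tissue of fenretinide mouse 91 (triangles). Irf7 and Usp18 stand at 1.31 or more in mice 53 and 94 and at 0.12 and 0.13 in mouse 91, where Irf1 and Igtp are highest.

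The members varied between mice of 1 group more than the median gene did, and largely together. The median within-group SD was 0.27 for the members and 0.17 for all genes in white adipose tissue, 0.29 and 0.21 in brown adipose tissue and 0.28 and 0.19 in liver. Correlations of within-group deviations over arrays are given as a description with no test. Pairs of all genes had median correlations between -0.01 and 0.01. Over 666 pairs of members the median correlation was 0.35 in white adipose tissue (14 arrays). It was 0.62 in brown adipose tissue (20 arrays) and 0.44 in liver (40 arrays). Without brown mice 82 and 95 it was 0.45 (18 arrays), and among vehicle livers alone 0.37 (20 arrays). In liver the members closest to the rest of the set were Usp18, with a median correlation of 0.63 with the other members, and Irf7, Dhx58 and Rtp4, with 0.62 each. Irf1 (0.05), Oas2 (-0.03) and Oas3 (-0.15) correlated weakly or inversely with the others there, whereas in white and brown adipose tissue Irf1 stood at 0.59 and 0.75. Of 15 mice with both tissues measured, the score had the same sign in both in 8 of 8 on day 15 and in 1 of 7 on day 29. Several day 15 scores lay near 0, such as 0.0015 and 0.0005 in brown adipose tissue of mice 44 and 55 and 0.007 in liver of mouse 45. On day 29 mouse 82 is part of the brown vehicle mean and mouse 88 (score -0.32) of the liver vehicle mean. The sign counts are therefore a description only.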

How the data were processed

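Total RNA was extracted with Trizol and hybridised as biotin-labelled cRNA to Affymetrix mouse genome arrays, per the labels' protocols. The deposited values are RMA intensities of 45101 probe sets on a linear scale, per the submitters' processing notes, from 7.44 to 39426, and log2 of the authors' deposited intensity was taken here with no further normalization. Of the probe sets, 34945 carry 1 gene symbol in the platform annotation, and each of 18193 genes was read from its brightest one; 14 members have several probe sets. The number of arrays limits the precision, and the labels give no batch or scan date.

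Group means were fitted with limma 3.58.1 in R 4.3.3 over the 14 arrays of white adipose tissue or the 20 arrays of each other tissue and study, and over 40 arrays for contrasts of tissue or agent. P-values were adjusted by Benjamini-Hochberg over all genes. The fit was tested on simulated data. In the troglitazone study both tissues come from the same animals in part, and limma's consensus correlation within a mouse was -0.0448. Python 3.11.15 was used for description and motif search; a gene with several windows held a motif where any window did. The members and the lists of pathway and marker genes were chosen with earlier results of these data known. Named genes were all called members where 10 or fewer, otherwise the 6 largest in each direction, the 3 largest changes where none was called, up to 3 called genes per list, the 3 brightest and 3 dimmest members per tissue, and always Irf7, Ifit1, Stat2, Irf1, Psmb8, Usp18 and Bst2. Members outside the rule that are named for single mice, for groups that do not overlap or for an unadjusted p below 0.05 were chosen after their values were seen. Alternatives were quantile normalization, median centring, the mean of all probe sets of a gene, dropping genes below the median mean, limma's trended and robust variance, array weights, fits of 2 groups alone, vehicle livers of the other study, the mouse as a block, and each array left out.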

Additional observations from a re-analysis of the deposited data

Results flagged for a closer look

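In groups of 4 or 5 mice, the highest or lowest value was set against the rest by Dixon's criterion for the member score and for Irf7, Ifit1, Stat2, Irf1, Psmb8, Usp18 and Bst2. Of 112 group and measure combinations 10 stood out, where chance alone gives about 5.6. Causes were not tested.

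Troglitazone mouse 95 gave 3 of the 10 in brown adipose tissue of day 29. Its member score was 0.54, against -0.09 to -0.05 in the other 4 mice, its Irf1 was 10.25 against 9.83 to 9.93, and its Psmb8 was 10.60 against 9.23 to 9.49. This array had a Ucp1 value of 8.10, far below the other treated mice, and the liver of the same animal had a score of -0.03.

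Vehicle mouse 88 of the troglitazone study gave 2 in liver on day 29. Its member score was -0.32, against 0.03 to 0.15 in the others, and its Stat2 was 7.37 against 8.05 to 8.23. The score's sign in this mouse bears on the troglitazone comparison of day 29, where 20 members lay above 0 without it and 28 with it.

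Irf7 stood out in the liver of Elmiron mouse 53 on day 15 (10.63, the others 9.27 to 9.60) and of troglitazone mouse 92 on day 29 (9.89, the others 9.07 to 9.12). In mouse 92 the macrophage markers were 1.04 above the vehicle mean.

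The others were single values. Ifit1 was 8.11 in brown adipose tissue of troglitazone mouse 52 on day 15, the others 7.43 to 7.60. Psmb8 was 9.40 in brown adipose tissue of troglitazone mouse 51 on day 15, the others 9.70 to 9.78. Bst2 was 12.15 in the liver of vehicle mouse 83 of the Elmiron study on day 29, the others 11.81 to 11.85.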

How the results depend on the processing

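Over all settings, 330 recomputed counts of called members stayed within 1.5 times the count as deposited and 8 did not. Most of the recomputed results had 0 called members as deposited, so an unchanged count there is 0 again and says little about stability. The 8 were fenretinide in white adipose tissue on day 15, with 2 called members after median centring and 0 to 0 when any 1 of the 6 mice was left out (1 in the full data), and troglitazone in brown adipose tissue on day 15, with 1 called member under array weights. No called value changed direction. With the mouse as a replicate block, the vehicle tissue comparison called 29 members on day 15 and 29 on day 29, and the tissue difference of the troglitazone effect 0 and 0, and the 29 called members were the same with and without the pairing on each day. Leaving out 1 array at a time gave 27 to 29 called members for the vehicle tissues on day 15 and 28 to 31 on day 29; Samd9l on day 15 (adjusted p = 0.042) and Rsad2 on day 29 were lost in several of these. In the vehicle tissues on day 15 the called split was 5 higher and 24 lower as deposited and 4 and 25 after quantile normalization, under which the median of all genes moved from -0.11 to -0.003. The number of members above 0 was less stable than the calls. Over single arrays left out it ran from 12 to 30 for troglitazone in brown adipose tissue on day 29, 20 to 29 in liver on day 29, 17 to 27 for fenretinide on day 29 and 28 to 34 for Elmiron on day 15. For troglitazone in liver on day 29 it was 17 under array weights, and the median change over the settings other than left-out arrays ran from -0.01 to 0.10. The causes were not tested. In the median member, the unadjusted 95% interval reached 0.29 to 0.44 to either side of the change. Adjustment over all genes asks for more than this interval does. Larger changes, such as that of Irf1 on day 29 of fenretinide, were not called either, so changes of this size and above could be missed one gene at a time.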

Other observations

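The interferon genes themselves had low signals. Single arrays lay between 4.05 and 5.04 for Ifng and between 5.60 and 7.08 for Ifnb1 over the 16 groups, and limma called 0 of the 9 measured interferon genes in any comparison of an agent with its vehicle.

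Cxcl10, a chemokine gene induced by interferon gamma and by other inflammatory signals, and Socs3, a feedback inhibitor of cytokine receptors, were high in some animals of vehicle and treated groups alike. These animals were chosen after their values were seen. Cxcl10 was 10.86 in white adipose tissue of fenretinide mouse 91 on day 29 and 6.10 to 7.73 in its vehicle mice, and Socs3 was 11.87 against 7.34 to 7.94. In fenretinide mouse 93 of that group Cxcl10 was 8.24, and Socs3 was 10.35 in mouse 93 and 10.29 in mouse 95. For Socs3, 3 of the 4 treated mice thus lay above all vehicle mice of day 29. White adipose tissue of vehicle mouse 50 on day 15 also had a high Socs3 value, 11.22, with Cxcl10 at 7.63. In liver of Elmiron mouse 55 on day 15 Cxcl10 was 10.07 and Socs3 11.41. In liver of vehicle mouse 85 of the Elmiron study on day 29 they were 9.56 and 11.98. Elmiron mouse 94, with the highest member score of all arrays, had a Cxcl10 value of 7.56.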
